A study of Homo sapiens with 21 samples.

Results

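The genes described here are 42 genes of mitosis and of the G2/M transition, the step at which a cell that has copied its DNA commits to division. They were chosen by gene symbol, as 42 named genes among the 23201 gene symbols measured. All 42 passed the filter on low values (a mean of at least 10 over all libraries), which 13343 genes passed in all. By role they fell into 9 sets, with 8 cyclins and kinases of mitotic entry, 1 transcription factor, 4 spindle checkpoint genes, 6 kinetochore and centromere genes and 3 genes of the chromosomal passenger complex. The other sets held 8 genes of spindle assembly and its motors, 6 of cytokinesis, 4 of anaphase and its ubiquitin ligase, and 2 of chromosome structure.

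The RNA came from the HMLE cell line, human mammary epithelial cells immortalized with telomerase and SV40 early region genes, so that every group, untreated cells included, carried a viral protein that binds p53 and the RB family. Cells were untreated (d0) or treated with TGFβ, a cytokine that induces epithelial to mesenchymal transition (EMT) and slows the division of many epithelial cells, for 1, 4, 7, 10, 15 or 20 days (d1 to d20). Each timepoint had 3 libraries, 21 in all, and all wells were seeded at one cell density. There was no untreated culture of matched age at d1 to d20, so time in culture and treatment cannot be told apart.

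In cycling cells the transcripts of most of these genes are low after division, rise through S and G2 phases and peak as cells enter mitosis. In resting cells the DREAM complex holds the genes silent, and in cycling cells its MuvB core joins B-MYB (MYBL2) and then FOXM1 to switch them on. MuvB binds DNA through LIN54 at the cell cycle genes homology region (CHR), whose common core reads TTTGAA, and NF-Y binds the CCAAT box that often lies upstream of it. Levels in a whole culture therefore follow the share of cells in G2 and mitosis as well as the RNA made per cell, and in bulk RNA a smaller share of dividing cells and less RNA per cell cannot be told apart.

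The promoters were searched for the letters of both motifs. RefSeq windows of 300 bases (250 before the gene start and 50 from it on, build GRCh38.p14) were matched by symbol for 35 of the 42 genes, in 42 windows, since 5 genes had more than 1. The letters TTTGAA were searched on both strands and were found in windows of 26 of the 35 genes (74.3%), against 13.7% of the 9218 other tested genes with a window. CCAAT, searched on both strands as well, was found in 29 of the 35 (82.9%), against 43.2% of the other tested genes. Both stood in one window for 22 genes (62.9%), against 5.64% of the others. Stretches from 120 bases before the start to the last base before it are shown for the gene of each role with the largest fall at d15 among those holding both motifs in that stretch. BUB1, BUB1B and MAD2L1 of the spindle checkpoint had no such stretch, and TTK and FOXM1 had no window to search. Each is written 5′ to 3′ along the gene, with TTTGAA or CCAAT (or, read on the other strand, TTCAAA or ATTGG) in capitals.
CDK1 (chr10:60778358-60778477, plus strand): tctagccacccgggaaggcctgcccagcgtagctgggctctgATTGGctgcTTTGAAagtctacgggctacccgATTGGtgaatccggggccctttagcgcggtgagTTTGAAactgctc
HJURP (chr2:233854536-233854655, minus strand): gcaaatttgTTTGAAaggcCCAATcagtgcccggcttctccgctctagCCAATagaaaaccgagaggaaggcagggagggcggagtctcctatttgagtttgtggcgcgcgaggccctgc
CDCA8 (chr1:37692396-37692515, plus strand): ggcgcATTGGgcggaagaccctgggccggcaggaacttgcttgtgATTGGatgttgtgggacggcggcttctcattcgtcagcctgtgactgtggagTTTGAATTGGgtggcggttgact
DLGAP5 (chr14:55191586-55191705, minus strand): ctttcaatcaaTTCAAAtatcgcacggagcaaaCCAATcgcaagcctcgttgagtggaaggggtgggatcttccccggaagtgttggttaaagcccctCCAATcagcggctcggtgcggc
PRC1 (chr15:90994536-90994655, minus strand): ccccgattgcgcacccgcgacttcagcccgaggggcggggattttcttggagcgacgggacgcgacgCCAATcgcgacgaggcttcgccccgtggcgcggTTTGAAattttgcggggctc
CDC20 (chr1:43358861-43358980, plus strand): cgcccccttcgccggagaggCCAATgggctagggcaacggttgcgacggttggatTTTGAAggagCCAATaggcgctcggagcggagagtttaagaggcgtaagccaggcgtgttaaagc
MKI67 (chr10:128126424-128126543, minus strand): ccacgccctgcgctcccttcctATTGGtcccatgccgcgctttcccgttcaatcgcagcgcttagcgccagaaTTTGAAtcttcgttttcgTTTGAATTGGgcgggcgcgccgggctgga
CDK1 and MKI67 each had a pair of CHR cores in this stretch, and in CDCA8 and MKI67 a CHR core ran into a reversed CCAAT box, both sharing letters. Of the 40 CHR cores in the 42 windows, 32 read TTTGAA along the gene, 21 began within 100 bases before the start, and the median first base lay 28.5 bases before it. The 73 CCAAT boxes had a median first base 85 bases before the start, and 47 of them began within the 100 bases before it. Windows of a gene with more than 1 could overlap, so some sites, such as those of PTTG1 and CDC25C, were counted more than once in these numbers. These matches are descriptions of letters and do not show that a factor bound. The 26 genes with TTTGAA had a median log2 fold change of -1.53 at d15 against d0, and the 9 matched genes without it had -1.63. Among S phase genes, a list described further on, 1 of 41 with a window (2.44%) held TTTGAA, and 25 of 40 other mitotic genes (62.5%) did.

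**Figure D1:**
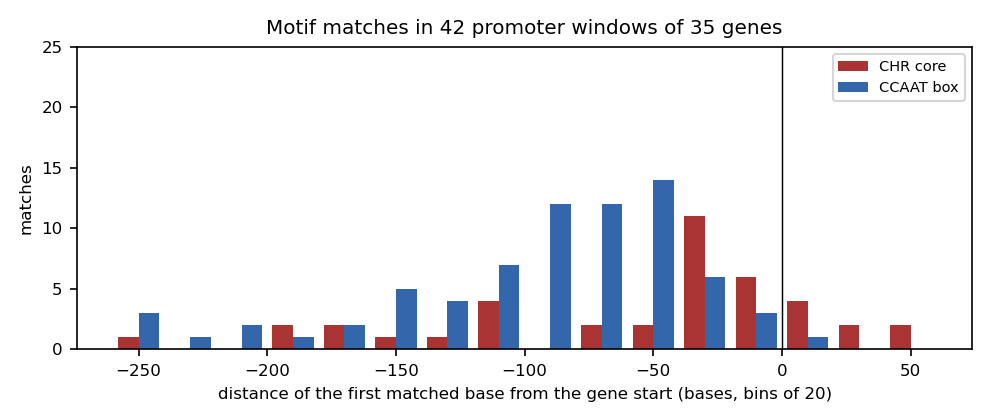
Number of motif matches (y axis) by the distance in bases of the first matched base from the gene start (x axis, bins of 20 bases, both strands, start at the black line) in 42 promoter windows of 35 mitosis and G2/M genes. The CHR cores (red, 40 matches) gather just before the start, with a median at -28.5, and the CCAAT boxes (blue, 73 matches) lie further upstream, with a median at -85. A site in overlapping windows of a gene is counted in each window.

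The libraries held between 18847917 and 22667754 reads, recovered from the deposited normalized values, and a single gene of the 42 had between 338 and 20312 reads in a library, so counting error was small beside the differences below. Libraries of one timepoint differed over all tested genes by 0.21 to 0.24 log2 units (root mean square over the genes), except at d7, where the third library differed from the others by 0.47 and 0.46. Over the 42 genes the third d7 library differed from the others by 0.51 and 0.50, while the remaining pairs of one timepoint differed by 0.041 to 0.092. The d7 counts and medians of the 42 genes are therefore given with and without it, and it also widened the spread that the shared fit used on other days. All 9 mammary epithelial markers were detected in every timepoint, and 7 of 10 markers of blood, vessel, liver and nerve cells stood at or under 3 reads. The summed mammary markers ran from 369272 to 395734 normalized reads at d0 and from 315995 to 323024 at d10, their lowest. They ran from 466622 to 846747 at d7 and from 629258 to 653044 at d15, and their part in the results was not tested. The summed markers of other cell types ran from 416 to 429 normalized reads at d0, from 365 to 428 at d10, their lowest, from 800 to 836 at d4, their highest, and from 743 to 792 at d15, and their part in the results was not tested.

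Most of the mitosis and G2/M genes fell by the first day and further to d4, many rose again to d10, all fell to their lowest level at d15, and at d20 they lay close to untreated cells, with log2 fold changes between -0.45 and 0.36. All 42 had their lowest mean at d15, and leaving that day out, 38 had it at d4. The highest mean stood at d0 for 18 genes and at d20 for 24. These days of lowest and highest mean were read from the deposited values only, and shares of all tested genes were not counted. Values are normalized read counts, on which the authors' size factors set all libraries to a common scale, and fold changes are differences of log2(value + 1) tested with limma over all 13343 genes, with Benjamini-Hochberg adjustment within each comparison. All 42 genes differed over the 7 timepoints at an adjusted p between 7.54e-18 and 3.15e-08 (moderated F test of limma), but 95.9% of all tested genes did so as well. Against d0, 34 genes were lower and 0 higher at d1, where 28.5% of all tested genes were lower and 31.3% higher. At d4, 41 were lower and 0 higher (35.3% and 36.9% of all genes), and at d7, 40 were lower and 0 higher (32.6% and 34.6%). At d10, 20 were lower, 4 higher and 18 did not pass (30.7% of all genes lower and 37.0% higher). The 20 became 12 without the second d0 library, and 13 without the third d0, the first d10 or the second d10 library, and the 4 became 1 without the first d0 library and 2 without the first or the third d10 library. At d15, all 42 were lower and 0 higher (37.3% and 39.2%), 41 of them at least 2-fold (8.66%). At d20, 4 were lower, 8 higher and 30 did not pass (30.2% and 32.5%), and the 8 became 5 without the first d0 or the third d20 library. No gene of the 42 was higher at d1, d4, d7 or d15 in limma at an unadjusted p under 0.05 either (0 genes). At an adjusted p under 0.05, edgeR and DESeq2 gave 0 as well. But CDC20 passed as higher at d1 (0.07) with the third d7 library left out of the limma fit (adjusted p = 0.0392). It also passed in a limma fit of d0 and d1 alone (adjusted p = 0.0476). In all, 33 genes were lower at d1, d4, d7 and d15 alike, and 37 without the third d7 library. The share of all tested genes lower on every one of these days was not counted. On each single day it was 28.5% to 37.3%.

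**Figure D2:**
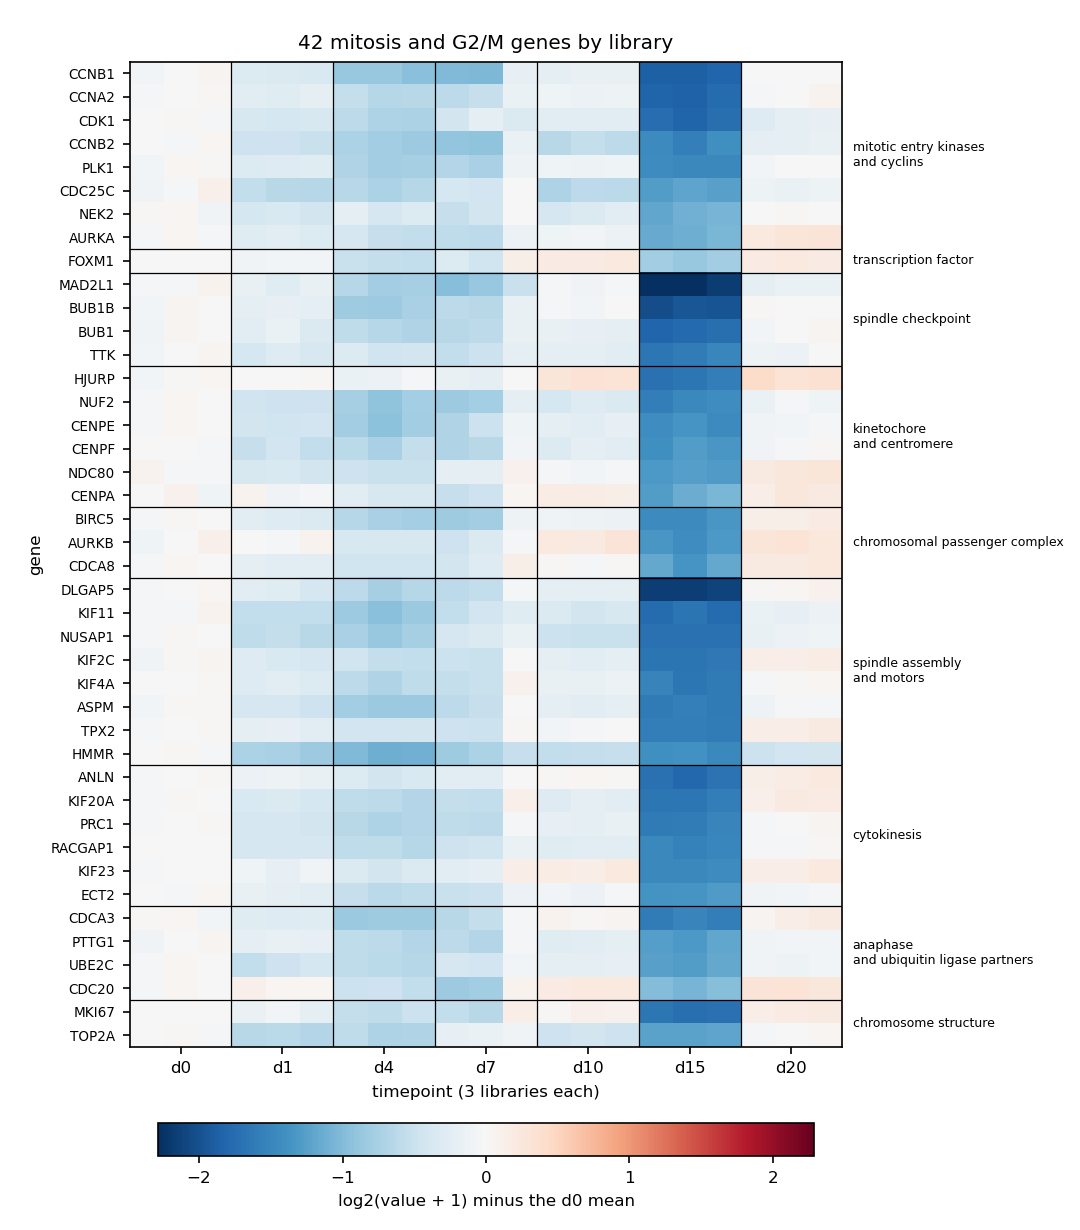
Difference in log2(value + 1) from the mean of the d0 libraries (colour, blue lower and red higher) for 42 mitosis and G2/M genes (rows, grouped by role and ordered by their change at d15) in 21 libraries (columns, 3 for each timepoint). The d15 libraries are the darkest blue within each row, d4 forms a paler band, the third d7 library is paler than its neighbours, and d20 runs from pale blue to pale red.

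The median log2 fold change over the 42 genes against d0 was -0.30 at d1 and -0.62 at d4. It was nearer to 0 at d7 (-0.38) and d10 (-0.18), -1.50 at d15 and 0.01 at d20, while the median over all tested genes ran from -0.00047 to 0.031 over these days. Fitting the steps between sampled days, 34 genes fell from d1 to d4 (32.0% of all tested genes) and 24 rose from d4 to d7 (25.5%). From d7 to d10, 25 rose (36.2%) and 3 fell (35.2%), from d10 to d15 all 42 fell (40.5%), 37 at least 2-fold (10.2%), and from d15 to d20 all 42 rose (37.7%), 41 at least 2-fold (7.55%). The 3 genes that fell from d7 to d10 were CDC25C, NUSAP1 and TOP2A. The d10 and d20 counts against d0 depended on scaling. Rescaling each library to the same total moved the median of all genes from 0.031 to -0.20 at d10 and from -0.00047 to -0.20 at d20. It gave 34 lower and 0 higher at d10, and 20 lower and 1 higher at d20. Quantile normalization gave 33 lower and 1 higher at d10, and 15 lower and 3 higher at d20. With the third d7 library left out of the shared spread, a setting added after the data were seen, the counts were 28 lower and 7 higher at d10, and 8 lower and 16 higher at d20. The shares of all tested genes lower or higher under these 3 settings were not counted, and those of the main fit need not hold there.

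Cyclin B1 (CCNB1) is the activating partner of CDK1, the kinase that drives cells into mitosis. Its normalized read counts were 7649.9, 7995 and 8377 at d0, 6414, 6372 and 6249 at d1, 4400.2, 4392 and 4128 at d4 and 3970.0, 3917 and 7006 at d7. It stood at 6936, 7149 and 7073 at d10, 2191, 2192 and 2284 at d15 and 8003, 7995 and 8022 at d20. The d15 libraries lay below all others, the first 2 d7 libraries lay below d4 and the third among those of d10, and d20 lay within the range of d0. The log2 fold change was -0.89 at d4 (SE 0.13, limma adjusted p = 1.9e-06), -1.85 at d15 (adjusted p = 1.74e-11) and 0.00 at d20, where it did not pass. CDK1 itself stayed lower at the end of the course. The counts of CDK1 were 4238, 4280.0 and 4160.4 at d0, 3297, 3193 and 3278 at d1, 2801, 2583 and 2569 at d4 and 3173, 3650.0 and 3362 at d7. It stood at 3568, 3538 and 3552 at d10, 1254, 1185 and 1283 at d15 and 3464, 3632 and 3713 at d20. All d20 libraries of CDK1 lay below all d0 libraries, with a log2 fold change of -0.23 (SE 0.046, limma adjusted p = 0.000168), against -1.77 at d15 (adjusted p = 1.26e-18).

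All 8 cyclins and kinases of mitotic entry were lower at d15, by log2 fold changes between -1.85 and -1.11. Cyclin A2 (CCNA2), which acts from S phase into early mitosis, had means of 4229.8 ± 62 (SD, n = 3) at d0, 1199 ± 39.3 at d15 and 4273 ± 162 at d20, a log2 fold change of -1.82 at d15. Cyclin B2 (CCNB2), a second CDK1 partner, had 4000.4 ± 117 at d0, 2657 ± 73.3 at d10 and 1444 ± 83.7 at d15. The change of CCNB1 at d10 did not pass (-0.18, adjusted p = 0.209, but 1.55e-06 without the third d7 library), and CCNB2 was lower at d10 (-0.59, limma adjusted p = 0.000174), but the difference between these 2 genes was not tested. CDC25C, the phosphatase that activates CDK1, was also lower at d10 (-0.64, adjusted p = 3.05e-07), with values of 1096, 1137 and 1256 at d0, 714, 765 and 753 at d10 and 479, 504 and 489 at d15. The polo-like kinase PLK1, needed for spindle and centrosome maturation, fell by 0.75 on the log2 scale at d4 and by 1.46 at d15. AURKA, a centrosome kinase, had 2778 ± 73.1 at d0, 1286 ± 49.9 at d15 and 3349 ± 98.8 at d20, and was higher at d20 than at d0 (0.27, limma adjusted p = 0.00616). That call was lost under rescaling to the same total. NEK2, a kinase of centrosome separation, fell by 1.12 at d15 and was the only gene of the 42 whose lowest mean outside d15 stood at d1.

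FOXM1, the transcription factor that with B-MYB switches on G2/M genes, changed least of the 42 at d15. Its counts were 5075, 5158 and 5125 at d0, 4847, 4907 and 4884 at d1, 3594, 3518 and 3453 at d4 and 4144, 3725 and 5633 at d7. It stood at 5816, 5843 and 5946 at d10, 2965, 2792 and 2947 at d15 and 5815, 5998 and 5849.8 at d20. The d15 libraries lay below all others and stood at 56.7% of the d0 mean, with a log2 fold change of -0.82 (SE 0.084, limma adjusted p = 1.33e-08). At d10 and d20 FOXM1 was higher than at d0, by 0.20 (limma adjusted p = 0.0438) and 0.20 (adjusted p = 0.0423). The d10 value turned to -0.03 when libraries were rescaled to the same total, and the d20 call was lost there as well.

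The spindle checkpoint, which holds anaphase until every chromosome is attached, held the gene with the largest fall. MAD2L1, the checkpoint protein that binds CDC20, had counts of 2231, 2260.4 and 2433 at d0, 2039, 1914 and 2045 at d1, 1471, 1331 and 1365 at d4 and 1179, 1260.5 and 1624 at d7. It stood at 2268, 2189 and 2259.8 at d10, 474, 471 and 513 at d15 and 1998, 2078 and 2078 at d20. At d10 its libraries overlapped those of d0, and at d15 they stood at 21.1% of the d0 mean, a log2 fold change of -2.25 (SE 0.077, limma adjusted p = 1.38e-16). BUB1B, which encodes BUBR1, had means of 3110.3 ± 127 (SD, n = 3) at d0, 1783 ± 58.1 at d4, 3023 ± 59.9 at d10, 782 ± 18.5 at d15 and 3121 ± 41.2 at d20. Its change of -1.99 at d15 was the third in size among the 42. BUB1, the kinase that recruits checkpoint proteins to kinetochores, changed by -1.77 at d15, and TTK, the MPS1 kinase at the head of the checkpoint, by -1.58. At d20 none of these 4 genes passed against d0, with log2 fold changes from -0.17 (MAD2L1) to 0.01 (BUB1 and BUB1B), but MAD2L1 did without the third d7 library (adjusted p = 0.000619).

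Kinetochore and centromere genes were all lower at d15. At d1 some passed the test and others did not, and the differences between these genes were not tested. HJURP, the chaperone that places the centromeric histone CENPA, had counts of 1638, 1736 and 1751 at d0, 1712, 1728 and 1749 at d1, 1528, 1559 and 1665 at d4 and 1511, 1480.4 and 1719 at d7. It stood at 2076, 2160.1 and 2135 at d10, 525, 542 and 569 at d15 and 2278, 2127 and 2174 at d20. It did not pass at d1 (0.02) or d4 (-0.11, limma adjusted p = 0.0584, and 0.0121 without the third d7 library), fell by 1.65 at d15 and was higher than at d0 at d10 (0.31) and d20 (0.36, adjusted p = 2.7e-06). All d10 and d20 libraries of HJURP lay above all d0 libraries. HJURP was also the 1 gene of the 42 that stayed higher at d20 after rescaling to the same total (0.16, adjusted p = 0.0114). Its rise at d10 did not pass after that rescaling. CENPA itself did not pass at d1 (-0.01) and had 842, 902 and 781 at d0, 712, 650.5 and 647 at d4 and 345, 382 and 406 at d15. NUF2 and NDC80, subunits of the complex that grips microtubules, were lower at d1, with log2 fold changes of -0.47 and -0.38. CENPE, a kinetochore motor, changed by -0.85 at d4 and -1.42 at d15. CENPF, a large kinetochore protein of G2 cells, changed by -0.50 at d1 and -1.33 at d15. NDC80 was higher at d20 than at d0 (0.25, limma adjusted p = 0.00103), a call lost under that rescaling.

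The chromosomal passenger complex corrects faulty attachments and steers cytokinesis. Its kinase AURKB did not pass at d1 (0.01), and its values were 872, 925 and 1017 at d0, 726, 722 and 724 at d4, 1089, 1085 and 1146 at d10, 371, 350.0 and 375 at d15 and 1141, 1166 and 1109 at d20. The d15 libraries lay well below d4, and d10 and d20 lay above d0, with log2 fold changes of 0.24 (limma adjusted p = 0.00768) and 0.28 (adjusted p = 0.00267). Neither rise of AURKB passed under rescaling to the same total. BIRC5 (survivin), which tethers the kinase, went from a mean of 4562 ± 73.1 (SD, n = 3) at d0 over 2756 ± 115 at d4 to 1710.0 ± 80.1 at d15. CDCA8 (borealin) changed by -1.23 at d15 and 0.22 at d20 (limma adjusted p = 0.0286), and its d20 call was lost under the same rescaling.

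Among genes of spindle assembly, DLGAP5, which stabilizes kinetochore fibres, had the second largest fall of the 42 at d15. Its counts were 3601, 3698 and 3791 at d0, 3082, 3036 and 2835 at d1, 2425, 2194 and 2351 at d4 and 2427, 2498 and 3635 at d7. It stood at 3165, 3184 and 3158 at d10, 825, 833 and 849 at d15 and 3744, 3796 and 3969 at d20. The log2 fold change was -2.14 at d15 (SE 0.091, limma adjusted p = 5.97e-15), and at d20 all 3 libraries lay within or above the range of d0. HMMR, a microtubule protein of spindle poles that is also known as RHAMM, had counts of 3989.6, 4038 and 3918 at d0, 2399, 2394 and 2234 at d1, 1987, 1840.4 and 1868 at d4 and 2266, 2407 and 2752 at d7. It stood at 2682, 2738 and 2768 at d10, 1504, 1514 and 1439.9 at d15 and 2844, 2954 and 2977 at d20. HMMR was the only gene of the 42 at least 2-fold lower at d4, as 5.03% of all tested genes were (-1.07, adjusted p = 8.72e-14), and it had the largest remaining deficit at d20 (-0.45, adjusted p = 1.86e-07), where no library reached d0. Of the other 6, KIF11, the motor that pushes spindle poles apart, and NUSAP1, a microtubule bundling protein, were also lower at d20 (-0.15 and -0.13). The depolymerase KIF2C changed by -1.66 at d15, the chromokinesin KIF4A by -1.60, the spindle pole protein ASPM by -1.60 and TPX2, the activator of AURKA, by -1.59.

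The 6 cytokinesis genes were all lower at d15, with log2 fold changes between -1.73 and -1.33. ANLN (anillin), a scaffold of the contractile ring, had values of 7765, 8048 and 8190.2 at d0, 6446, 5989 and 6279 at d4, 8173, 8235 and 8179 at d10, 2446, 2295 and 2488 at d15 and 8793, 8975 and 9385 at d20. Its d10 libraries overlapped d0 and its d20 libraries lay above d0 (0.18, limma adjusted p = 0.00515), a direction that turned to -0.02 under rescaling to the same total and -0.04 under quantile normalization. KIF23, a motor of the central spindle, was higher at d10 (0.18) and d20 (0.18), and turned to -0.05 and -0.02 under the same rescaling. PRC1, which bundles the central spindle, had means of 6569 ± 159 (SD, n = 3) at d0, 2195 ± 88.8 at d15 and 6617 ± 208 at d20. KIF20A, a motor that brings the passenger complex to the midzone, changed by -1.63 at d15, RACGAP1, a partner of KIF23, by -1.51, and ECT2, the activator of RhoA at the ring, by -1.33.

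CDC20, the activator of the anaphase-promoting complex (APC/C), had the second smallest fall of the 42 at d15. Its counts were 6489, 6878 and 6665 at d0, 7199, 6912 and 6921 at d1, 4719.9, 4835 and 4492 at d4 and 3755, 3825 and 7018 at d7. It stood at 7598, 7773 and 7826 at d10, 3336, 3211 and 3381 at d15 and 8228, 8338 and 7989 at d20. All libraries at d1, d10 and d20 lay above all d0 libraries, and the first 2 at d7 lay below all d4 libraries while the third lay above d0. CDC20 changed by -1.01 at d15 (SE 0.13, limma adjusted p = 6.66e-07), and its differences at d10 (0.21) and d20 (0.29, adjusted p = 0.0633) did not pass. Both passed without the third d7 library, at adjusted p = 6.6e-08 and 3.43e-11. Under rescaling to the same total, CDC20 passed as higher on neither day. UBE2C, the ubiquitin-conjugating enzyme that works with the APC/C, changed by -1.23 at d15, and PTTG1 (securin), the substrate whose loss frees separase, by -1.25. CDCA3, which promotes mitotic entry by destroying WEE1, went from 1463 ± 60.4 (SD, n = 3) at d0 over 824 ± 14.6 at d4 to 494 ± 14.7 at d15.

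Chromosome structure was represented by TOP2A, the topoisomerase that untangles sister DNA, and MKI67, which coats mitotic chromosomes and is the antigen Ki-67 used to count dividing cells. The counts of TOP2A were 16845, 17228 and 16706 at d0, 10890.3, 11029 and 10602 at d1, 11296, 10364 and 10523 at d4 and 14882, 15159.9 and 16019.8 at d7. It stood at 12188, 12694 and 12144 at d10, 7277, 7197 and 7372 at d15 and 16703, 16846 and 17507 at d20. All 3 libraries at d7 lay above d4 and below d0. TOP2A was lower again at d10 (-0.46, limma adjusted p = 6.26e-10) and fell to 43.0% of its d0 mean at d15. The counts of MKI67 were 10626, 10739 and 10649 at d0, 9632, 10197 and 9104 at d1, 7273, 7175 and 7589 at d4 and 7209.8, 6834 and 11850.1 at d7. It stood at 10829, 11607 and 11427 at d10, 3385, 3226 and 3261 at d15 and 11872, 12183 and 12311 at d20. At d7 the first 2 libraries of MKI67 lay below all d0 libraries and the third above them. MKI67 changed by -1.70 at d15 (adjusted p = 2.17e-11), and at d20 its difference of 0.18 did not pass (adjusted p = 0.181, but 4.97e-06 without the third d7 library). Under rescaling to the same total, MKI67 did not pass as higher at d20.

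**Figure D3:**
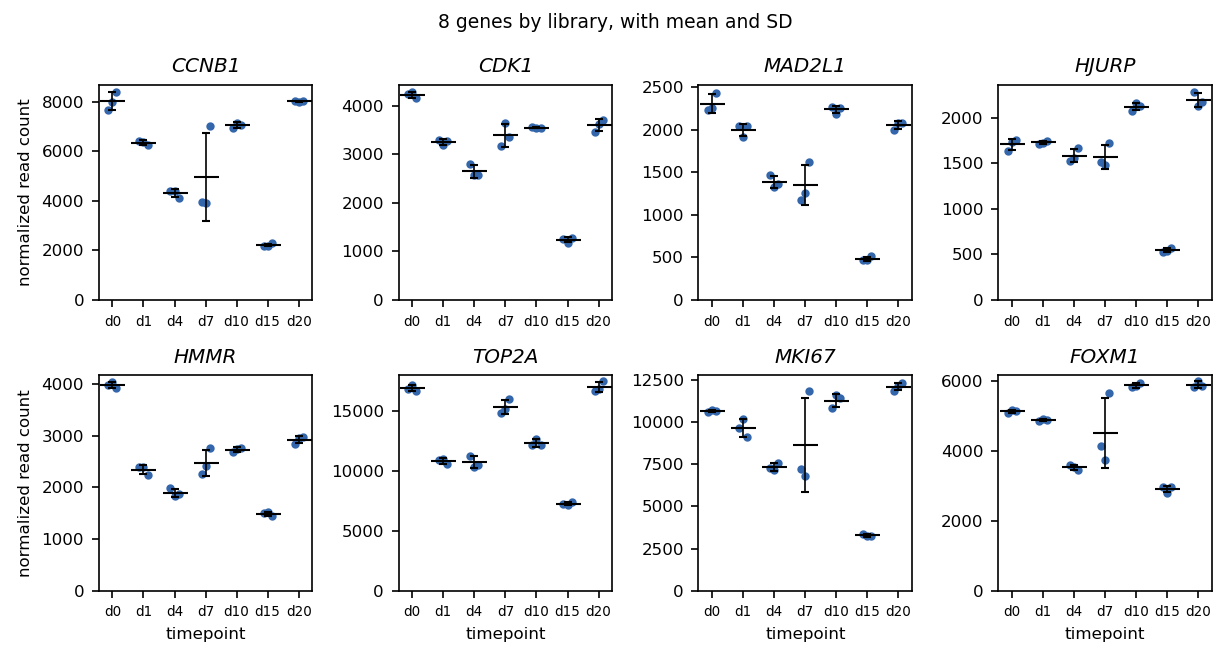
Normalized read counts (y axis, linear scale from 0) of 8 genes by timepoint (x axis), with 1 point per library, the mean as a black bar and the SD over 3 libraries as error bars. CCNB1, MKI67 and FOXM1 show one d7 library well above the other 2, while CDK1 and TOP2A do not, and the d15 points are the lowest in all 8 panels.

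At d15 the 42 genes stood at between 21.1% (MAD2L1) and 56.7% (FOXM1) of their untreated mean, with a median of 35.4%. All d15 libraries lay below all other 18 libraries for 42 of the 42 genes, against 15% of all tested genes. The adjusted p of the 42 comparisons with d0 ran up to 6.66e-07, and that of the comparisons with d10 up to 8.05e-07. The spindle checkpoint genes had the lowest median log2 fold change of the roles with more than 1 gene (-1.88), and the anaphase genes had the highest (-1.24), but the roles were not tested against each other. From d15 to d20 the rise ran up to an adjusted p of 1.91e-08. At d20, 10 of the 42 genes had all libraries above the other 18 (3.40% of all tested genes). Against d0 alone, 16 had all d20 libraries above (36.2%) and 8 had all below (34.6%). These counts were made on the deposited values only. Rescaling to the same total gave the 42 genes a median of -0.19 at d20, with 20 lower than d0 and 1 higher.

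The third d7 library was higher than both others for 41 of the 42 genes, the exception being CDK1. Both other d7 libraries lay below all d0 libraries for 42 genes, and the third did so for 22. All d7 libraries together lay below all d0 libraries for 22 of the 42 genes, against 31% of all tested genes. Shares of all tested genes were not counted for the third d7 library alone, for both others, or for the 41. Without the third d7 library the median change at d7 was -0.54 instead of -0.38, 42 genes were lower than at d0 in place of 40, 17 rose and 7 fell from d4 to d7 where 24 had risen, and 38 rose from d7 to d10 where 25 had. The same library stood apart for CDKN1A, the p21 inhibitor of cyclin-dependent kinases, which had 22956, 20637 and 4839.8 at d7, and for GADD45A, a stress-induced inhibitor of CDK1, which had 3556, 3538 and 1449 at d7. The first 2 d7 libraries of CDKN1A were near the d15 values of 23139.9, 22797 and 23650.4, and the third lay below d4, with 5413, 5725 and 5163 at d4. CDKN1A stood at 1937, 1831 and 1668 at d0 and 2642, 2903 and 2682 at d10. It was higher at d15 by 3.68 on the log2 scale (SE 0.32, limma adjusted p = 1.12e-09), the day on which all 42 genes were lowest, while its change at d10 (0.60, adjusted p = 0.108) did not pass. Without the third d7 library the same change at d10 had an SE of 0.048 and passed (adjusted p = 2.12e-14). Its part in the fall of the 42 genes was not tested.

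S phase genes, 50 genes of replication and its licensing, gave a second view of the cycle. At d1, 12 were lower and 12 higher, with a median log2 fold change of -0.01 beside -0.30 for the 42 genes. Rescaling to the same total gave 29 lower and 3 higher at d1, with a median of -0.20 beside -0.50. Quantile normalization gave 19 lower and 8 higher, with a median of -0.09 beside -0.45. At d4, 48 were lower (median -0.91), at d7 47 (median -0.61, and -0.72 without the third d7 library), and at d15 49 (median -2.02), beside -0.62, -0.38 and -1.50. At d10, 24 were higher and 6 lower, where 4 of the 42 genes were higher and 20 lower. Rescaling to the same total turned this to 10 higher and 21 lower at d10, with 0 higher and 34 lower of the 42. Quantile normalization gave 15 higher and 15 lower. At d20, 28 were lower and 4 higher (39 and 2 under rescaling). CCNE1, the cyclin of S phase entry, was the 1 gene of the S phase list that did not pass at d15 (0.14).

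Counted as a share of all reads in a library, which needs no size factor, the 42 genes took 0.937% to 0.960% at d0, 0.660% to 0.673% at d1 and 0.528% to 0.549% at d4. They took 0.570%, 0.584% and 0.806% in the 3 d7 libraries, 0.722% to 0.735% at d10, 0.301% to 0.310% at d15 and 0.840% to 0.864% at d20. On this scale no treated library reached the untreated ones. Reads of the 42 genes per read of the 50 S phase genes, a ratio within each library, were 1.94 to 2.02 at d0 but 1.55 to 1.60 at d1. They were 2.30 to 2.42 at d4, and 2.30, 2.41 and 2.62 in the first, the second and the third d7 library. At d10 they were 1.56 to 1.61, and they were 2.55 to 2.61 at d15 and 2.24 to 2.27 at d20. The d1 and d10 libraries lay below all d0 libraries and the d4, d7, d15 and d20 libraries above them.

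Mitotic genes outside the 42 were read from a list of 49 symbols, of which 46 were tested. Among them 44 were lower at d4 and 46 of 46 at d15, with a median of -1.58 beside -1.50. At d10, 11 were higher and 11 lower, and at d20, 10 and 6. Rescaling to the same total made these 2 higher and 28 lower at d10, and 1 and 22 at d20. The core of the APC/C and checkpoint subunits that are present through the cycle gave a smaller change, with 10 of 16 lower and 3 higher at d15, a median of -0.18 and 0 genes at 2-fold. BUB3, a checkpoint partner of BUB1, changed by -0.62 at d15, and ZW10, which brings checkpoint proteins to kinetochores, by -0.96. FZR1, the G1 activator of the APC/C, changed by -0.03 and did not pass.

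Subunits of MuvB, B-MYB and DREAM were uneven. Of 11 tested, 7 were lower and 2 higher at d15, with a median of -0.37. MYBL2 had the largest change of the list, with values of 2947, 3097 and 3176 at d0, 3589, 3642 and 3552 at d1, 3641, 3728 and 3662 at d10 and 653, 632 and 571 at d15, a log2 fold change of -2.31 at d15 (SE 0.065, limma adjusted p = 4.73e-18). It was higher than d0 at d1 (0.23) and at d10 (0.26). These rises were little larger than the shift of all genes under rescaling to the same total. That rescaling moved the median of all genes from 0.00089 to -0.19 at d1 and from 0.031 to -0.20 at d10. LIN37 (0.78) and RBL2 (0.09), which encodes the DREAM pocket protein p130, were the 2 higher, but RBL2 lost its call under rescaling to the same total (-0.066) and under quantile normalization (0.045), which left 1 higher. LIN54, the CHR-binding subunit, changed by -0.37. Of 7 inhibitors of cell cycle regulators, 4 were higher and 3 lower at d15 (3 and 3 after rescaling or quantile normalization, where SFN did not pass). CDKN1A, GADD45B (2.33), GADD45A (1.54) and SFN (14-3-3 sigma, 0.26) were higher. The inhibitory kinases PKMYT1 (-1.73) and WEE1 (-0.88) and the APC/C inhibitor FBXO5 (-0.99) were lower.

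**Figure D4:**
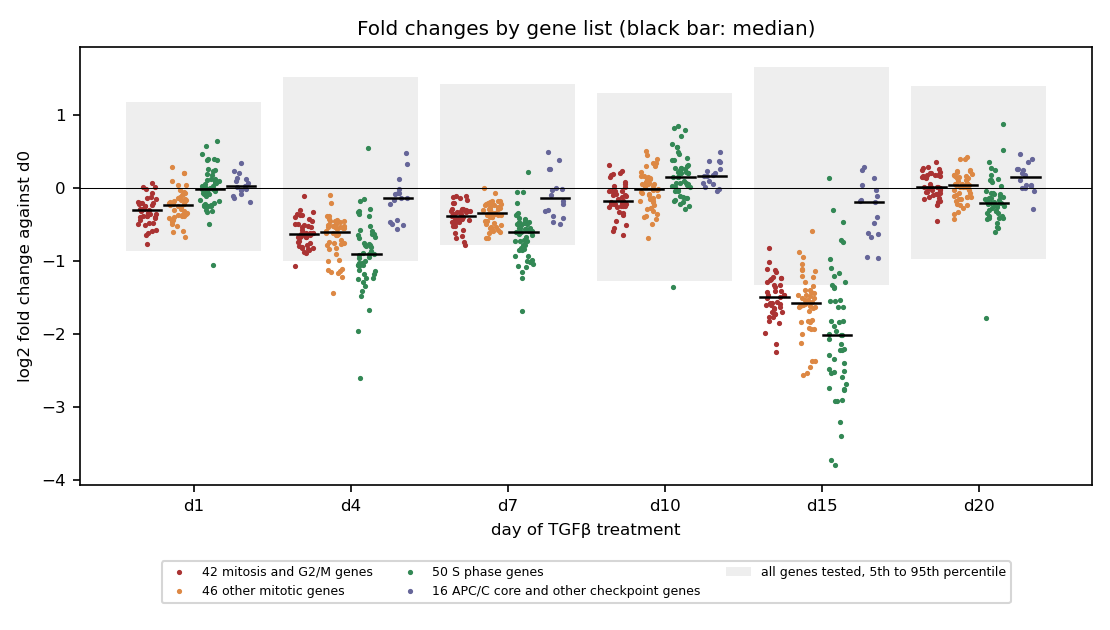
Log2 fold change against d0 (y axis) on each treated day (x axis) for single genes (points, with the list median as a black bar) of 42 mitosis and G2/M genes, 46 other mitotic genes, 50 S phase genes and 16 APC/C core and other checkpoint genes. Grey boxes span the 5th to 95th percentile of all tested genes, and at d15 the medians of the first 3 lists lie below the box while that of the APC/C list does not.

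Over the 21 libraries, log2 values of the single genes followed the mean of the other 41 closely, with a Pearson r between 0.884 (CDC25C) and 0.999 and a median of 0.978. These libraries share their culture and timepoints, so the r is a description. TOP2A (0.886) and CDC20 (0.887) came next lowest, genes that departed from the rest at d7 or d10. Among the other tested genes, the 10 with the highest r with the mean of the 42 were KIF14, KIF22, SGOL2, LMNB1, CKS2, SMC4, C15orf23, TACC3, PHF19 and NCAPD2, with r from 0.995 to 0.986. Of these, 7 stood on the list of other mitotic genes.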

How the data were processed

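HMLE cells were sampled at 7 timepoints with 3 libraries each, and the study calls the triplicates biological. The deposited signal is a normalized read count, and testing the values showed it to be whole reads scaled by a factor common to each library (100% whole within 0.02 reads) and rounded by the authors to 2 decimals. The submitters' processing notes name STAR 2.7, Salmon 1.4 and hg19, without saying which did what. Genes are named by symbol as deposited.

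Genes with a mean of at least 10 (13343 of 23201) were tested on log2(value + 1), with a pseudocount of 1, with limma 3.58.1 in R 4.3.3 (trend, two-sided), with one mean per timepoint, all 21 libraries fitted together, and p-values adjusted by Benjamini-Hochberg in each comparison, at 0.05. The fit was checked on simulated data. The scale understates changes of low genes. P-values measure the spread between these libraries. Alternatives were a pseudocount of 10, quantile normalization, no filter, a fit of the 2 compared groups alone, rescaling to the same total, a 2-fold minimum, edgeR 4.0.16 (quasi-likelihood) and DESeq2 1.42.0 on the recovered reads, and each library left out. Promoter windows came from RefSeq (GRCh38.p14) and were matched by symbol, not by the coordinates of hg19.

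The members and lists were chosen with earlier results of these data known. All 42 members could be named. Of the other lists, the 2 genes with the largest and the 2 with the smallest change at d15 and the genes of counts of 5 or fewer were named, and of all other genes the 10 most like the members' mean. The values of 1 gene under this rule are not reported here. LIN54, BUB3 and the d7 values of GADD45A were chosen after their values were seen. Plots were made in Python 3.11.15 with matplotlib 3.10.9.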

Additional observations from a re-analysis of the deposited data

Results flagged for a closer look

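2 results stood out because the same genes moved in opposite directions at neighbouring timepoints, and both steps were tested in their own limma comparison. All 42 genes were lower at d15 than at d10, with a median log2 change of -1.36, and all 42 were higher at d20 than at d15, with a median of 1.54. The d15 libraries agreed among themselves, and all 3 lay below the other 18 libraries for every one of the 42 genes. Culture age, handling and treatment at d15 cannot be told apart. A test for single outlying libraries was not run, since it needs groups of at least 4 libraries and each timepoint had 3.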

How the results depend on the processing

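For d15 against d0, d15 against d10 and d20 against d15, every one of the 42 genes kept its direction and its call under all alternatives run apart from the 2-fold minimum, leaving out each library included. The counts stayed at 42, and with the 2-fold minimum they were 41, 37 and 41. edgeR on the recovered reads called 10286 of all 13343 genes at d15 against d0, DESeq2 9975 and limma 10208. No paired analysis was possible because the table's columns do not show which numbered replicate each one holds.

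With a minimum of 2-fold, 1 gene was lower at d4 and 0 on each of d1, d7, d10 and d20, 0 were higher at d10 or d20, and 0 passed in the steps from d1 to d4, d4 to d7 and d7 to d10. Fitting only the 2 groups compared gave 1 gene higher at d1, 24 lower at d7, 7 higher at d10, 9 lower and 16 higher at d20, 9 higher from d4 to d7 and 16 higher from d7 to d10. edgeR gave 2 higher at d10. Rescaling to the same total gave 34 lower and 0 higher at d10, 20 lower and 1 higher at d20, and medians of -0.50, -0.82, -0.41, -1.66 and -0.19 at d1, d4, d10, d15 and d20. Quantile normalization gave 33 lower and 1 higher at d10, 15 lower and 3 higher at d20, and medians of -0.45, -0.74, -0.38, -1.54 and -0.14. The median at d10 was -0.22 by edgeR and -0.19 by DESeq2. With the third d7 library out of the shared spread, a setting chosen after seeing the data, 1 was higher at d1, 7 at d10 and 16 at d20, and 8 were lower at d20. The cause of these shifts was not tested. Shares of all tested genes under rescaling, quantile normalization or without the third d7 library were not counted.

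Leaving out single libraries gave 12 to 18 genes lower and 1 to 3 higher at d10, and 5 to 6 higher at d20. The lowest of these came without d0 library 2 for the 12, and without d0 library 1 for the 1 and for the 5, which was also reached without d20 library 3. The steps from d4 to d7 gave 0 to 7 lower, the 7 without the third d7 library, and those from d7 to d10 gave 19 to 38 higher, the 38 without it. Medians ran from -0.33 to -0.30 at d1 and from -0.21 to -0.16 at d10. Directions that turned were those of FOXM1 (-0.030) and KIF23 (-0.052) at d10 and ANLN (-0.022) and KIF23 (-0.025) at d20 under rescaling, and of FOXM1 (-0.0044), KIF23 (-0.0063) at d10 and ANLN (-0.035) at d20 under quantile normalization, none of them past the threshold there. Of the values of single genes under alternatives, 5574 of 6006 kept direction and call, 265 lost the call and 160 gained one.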
